A study of Homo sapiens with 4 samples.

Results

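The kinesin family was taken from the gene count table of MDA-MB-231 breast cancer cells treated with Rib_CA or DMSO. Members were the rows whose gene symbol, found from the Ensembl ID, was KIF followed by a number with or without a letter, or was KIFC1, KIFC2, KIFC3 or KIFAP3. The table held 43 such genes among its 20263 rows. The rule uses names alone and no measured value, but the family was chosen with earlier results of these data known.

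Kinesins are motor proteins that use ATP to walk along microtubules or to take microtubules apart at their ends. Mitotic kinesins build the bipolar spindle, align and separate chromosomes and set up the cleavage furrow, and in proliferating cells their transcripts peak in the G2 and M phases. Transport kinesins carry organelles, vesicles, proteins and RNA, mostly toward the cell periphery, and work in cycling and resting cells alike. The family was divided by known role into 14 mitotic kinesins, 16 transport kinesins and 13 kinesins with other roles, such as ciliary signalling or the control of microtubule length.

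MDA-MB-231 cells are an established human line from a triple-negative breast tumour. They were kept for 24 h with Rib_CA, which the series title calls a derivative of the CDK4/6 inhibitor ribociclib, or with DMSO, and the labels give no concentration. Each group had 2 libraries, 4 in the study. The labels do not tell whether they stem from separate cultures, and p-values then cover the spread among these libraries alone, which may be technical. All groups share 1 cell line without a genetic change made for the study.

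The libraries held 34774542 and 37754168 counts in DMSO and 38865103 and 37772266 in Rib_CA. Transcripts of the mitochondrial genome took 8.68% and 21.7% of counts in DMSO 1 and 2 and 5.78% and 3.13% in Rib_CA 1 and 2, so DMSO 2 stood apart, and results were recomputed without each library. Those fits leave 1 library in a group. Calls over all genes became fewer without either DMSO library and more without either Rib_CA library. A call lost or gained in such a fit is therefore not read as a trait of the gene. The labelled cell line was checked against markers. VIM, CD44, EGFR, CAV1 and AXL lay at 242 CPM (counts per 1000000, scaled by TMM) or above in every library, whereas SPARC, listed with them, stayed at or below 1.002 CPM. CDH1 had at most 3 counts, ESR1 at most 0.663 CPM, and COL1A2, DCN and CD3E had no count. Other genes listed as markers of luminal cells, fibroblasts or blood cells were present, with KRT8 at 272 to 487, KRT18 at 180 to 309, ERBB2 at 58.0 to 87.1, GATA3 at 3.04 to 21.7, EPCAM at 9.50 to 12.2, COL1A1 at 4.09 to 8.05 and CD68 at 161 to 338 CPM.

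Of the 43 kinesin genes, 34 passed the filter on low counts. In Rib_CA-treated cells 12 of these fell and 1 rose at an adjusted p under 0.05 in edgeR's quasi-likelihood test, and 21 were not called. Over all 13667 genes tested, 5.11% were called lower, 2.01% higher and 7.13% in either direction. The decreases lay mainly among mitotic kinesins, where 8 of 12 tested members fell and none rose. Among transport kinesins 1 of 14 fell and none rose, and among the 8 with other roles 3 fell and 1 rose. The median log2 fold change was -1.68 for mitotic kinesins, -0.25 for transport kinesins and -0.47 for the others, against 0.03 for all genes tested. When only total counts set the scale, the median of all genes moved by 0.20, and the calls over all genes went from 275 higher and 699 lower to 260 higher and 328 lower. The kinesin medians were then -1.49, -0.05 and -0.22, and 8 kinesins fell.

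**Figure D1:**
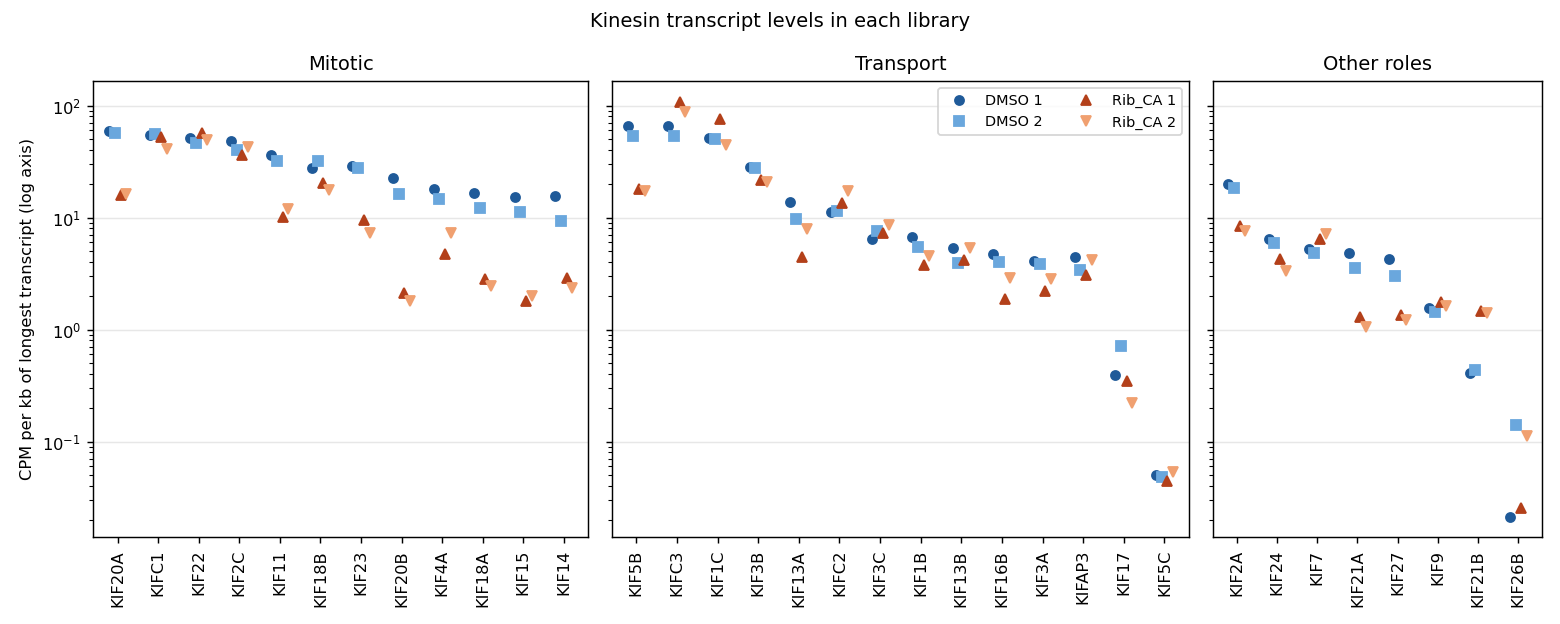
Level of each of the 34 tested kinesins in each library, as CPM per kilobase of the longest transcript on a log axis, by class and ordered by the DMSO mean. In KIF20B, KIF15, KIF18A and KIF14 both Rib_CA libraries (triangles) lie far below both DMSO libraries (circle and square), while KIFC1, KIF22 and KIF2C lie close together and in KIF21B the Rib_CA libraries are higher.

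The mitotic kinesins are described by known role, starting with cytokinesis, and these subgroups were not tested as such. KIF20B, which helps organise the midbody, lay at 146 and 105 CPM in DMSO 1 and 2 and at 13.6 and 11.6 CPM in Rib_CA 1 and 2. Both Rib_CA values were thus below both DMSO values by a wide margin, and the gene fell 9.94-fold (log2 fold change -3.31 ± 0.31 SE; edgeR adjusted p = 0.0285), the largest decrease among the tested kinesins. KIF14, which brings citron kinase to the central spindle, lay at 113 and 67.7 CPM in DMSO and at 21.2 and 17.1 CPM in Rib_CA, a 4.73-fold decrease (edgeR adjusted p = 0.0285). DMSO 1 was the higher control library in both genes. KIF20A, also called MKLP2, delivers the chromosomal passenger complex to the central spindle. It was steady within groups, at 190 and 182 CPM in DMSO and 50.5 and 51.6 CPM in Rib_CA, and fell 3.64-fold (log2 fold change -1.86 ± 0.25 SE; edgeR adjusted p = 0.0285). KIF23, the motor subunit of the centralspindlin complex, went from 108 and 103 CPM to 35.6 and 27.2 CPM, 3.36-fold lower (edgeR adjusted p = 0.0286). In KIF4A, a chromokinesin that shortens the microtubules of the spindle midzone with PRC1, the libraries lay at 78.8 and 63.5 CPM in DMSO and 20.5 and 32.0 CPM in Rib_CA, a 2.71-fold decrease that was nearest to the threshold (edgeR adjusted p = 0.0486). The near-identical gene KIF4B had 0 to 2 counts in each library. Of the 50-base stretches of the longest KIF4A transcript, 14.4% also occur in transcripts of other genes, most of them in KIF4B, and how such reads were counted is not given in the sources used here.

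Other called motors act in spindle assembly and chromosome alignment. KIF11, the Eg5 motor that pushes the spindle poles apart, lay at 176 and 154 CPM in DMSO and at 49.3 and 58.3 CPM in Rib_CA and fell 3.07-fold (edgeR adjusted p = 0.0287). KIF15, a second plus-end motor that can maintain spindle bipolarity, went from 74.6 and 54.1 CPM to 8.68 and 9.57 CPM, a 7.05-fold decrease (log2 fold change -2.82 ± 0.31 SE; edgeR adjusted p = 0.0285). KIF18A, which damps chromosome movements at the metaphase plate, went from 58.9 and 43.1 CPM to 10.0 and 8.81 CPM and fell 5.42-fold (log2 fold change -2.44 ± 0.31 SE; edgeR adjusted p = 0.0285). In all 3 genes the groups lay well apart.

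The 4 mitotic kinesins that were not called included 2 whose libraries overlapped between groups. KIF2C, the microtubule depolymerase MCAK, lay at 144 and 118 CPM in DMSO and 108 and 127 CPM in Rib_CA (log2 fold change -0.16 ± 0.26 SE; edgeR adjusted p = 0.732). KIF22, the chromokinesin Kid, lay at 128 and 115 CPM in DMSO and 142 and 123 CPM in Rib_CA, with a log2 fold change of 0.12 ± 0.25 SE. Neither motor showed a difference beyond the spread of its libraries, and the sign of KIF2C turned positive (0.04) with total-count scaling. KIFC1, a minus-end motor that bundles spindle microtubules and clusters extra centrosomes, lay at 148 and 152 CPM in DMSO and 143 and 111 CPM in Rib_CA (log2 fold change -0.24 ± 0.26 SE). KIF18B, a depolymerase of astral microtubules, had 116 and 136 CPM in DMSO and 85.6 and 73.9 CPM in Rib_CA, with a log2 fold change of -0.66 ± 0.25 SE (edgeR adjusted p = 0.148). In KIFC1 and KIF18B both Rib_CA libraries were below both DMSO libraries, as in 28.4% of all genes tested. These libraries hold RNA of whole cultures, in which fewer cells in mitosis and less RNA per cell cannot be told apart.

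Leaving out 1 library at a time, KIF20B, KIF15 and KIF18A passed in all 4 fits, with fold decreases of 8.35 to 11.6, 5.95 to 8.18 and 4.597 to 6.27. KIF14 and KIF20A lost their calls without DMSO 1 (3.55-fold and 3.58-fold lower there), and KIF11, KIF23 and KIF4A on leaving out either DMSO library, where their decreases ranged from 2.43-fold to 3.45-fold.

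**Figure D2:**
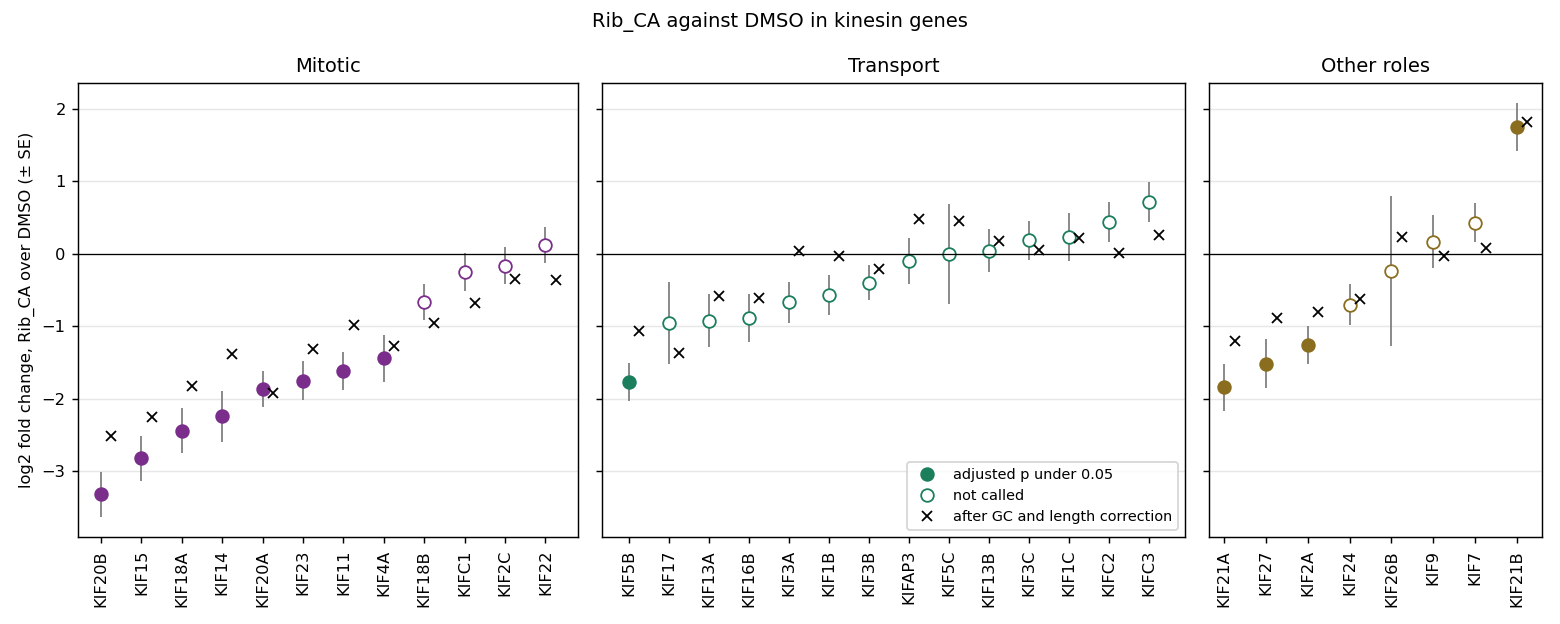
Log2 fold change of Rib_CA over DMSO with its SE for the 34 tested kinesins, by class, with filled circles for an adjusted p under 0.05 and crosses for the value after correction for transcript GC content and length. The mitotic panel runs from -3.31 (KIF20B) to 0.12 (KIF22), and in the transport panel KIF5B at -1.77 is the called gene.

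Transport kinesins showed 1 decrease. KIF5B, the ubiquitous heavy chain of conventional kinesin (kinesin-1), lay at 388 and 317 CPM in DMSO and at 105 and 101 CPM in Rib_CA. It fell 3.41-fold (log2 fold change -1.77 ± 0.27 SE; edgeR adjusted p = 0.0285), and per kilobase of transcript its mean level went from 59.9 CPM per kb in DMSO, beside KIFC3 (59.7) and KIF20A (58.1) at the top of the family, to 17.6 CPM per kb. The call was lost without DMSO 1, with a 3.08-fold decrease. The neuronal kinesin-1 heavy chains were near or below detection. KIF5C had 11 to 16 counts per library, and KIF5A had 10 counts in Rib_CA 1 and none elsewhere.

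The form of kinesin-2 described here, which powers transport in cilia and of vesicles, consists of a pair of KIF3 motors with the adaptor KIFAP3. KIF3A lay at 26.2 and 24.4 CPM in DMSO and 14.01 and 17.8 CPM in Rib_CA, a log2 fold change of -0.67 ± 0.29 SE that did not pass (edgeR adjusted p = 0.187). The values of KIF3B were 173 and 169 CPM in DMSO and 133 and 126 CPM in Rib_CA (log2 fold change -0.40), so the groups lay apart in both genes without a call. KIF3C and KIFAP3 had overlapping groups, with log2 fold changes of 0.19 ± 0.27 and -0.10 ± 0.32 SE.

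Kinesin-3 motors carry synaptic vesicle precursors, endosomes and other membrane cargo. KIF1C, the most counted kinesin, lay at 411 and 400 CPM in DMSO and 600 and 352 CPM in Rib_CA (log2 fold change 0.23 ± 0.33 SE). Rib_CA 1 and 2 thus lay on opposite sides of the controls, and the sign turned to -0.25 without Rib_CA 1. KIF1B had a log2 fold change of -0.56, KIF13A one of -0.92 and the endosome motor KIF16B one of -0.88, each with both Rib_CA libraries below DMSO and none called. KIF13A spread widely within groups, at 94.5 and 67.3 CPM in DMSO and 30.6 and 54.8 CPM in Rib_CA. Without Rib_CA 2 the log2 fold changes of KIF13A and KIF16B were -1.40 and -1.22. KIF13B overlapped between groups (log2 fold change 0.05 ± 0.30 SE).

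The minus-end motors KIFC3 and KIFC2 had positive log2 fold changes without a call. KIFC3, which moves apical vesicles and acts at cell junctions, had 225 and 184 CPM in DMSO and 371 and 301 CPM in Rib_CA. Its groups lay apart, as in the 30.4% of all genes with both Rib_CA libraries above DMSO. The log2 fold change of 0.71 ± 0.27 SE was not called (edgeR adjusted p = 0.147). KIFC3 was at 0.86 without Rib_CA 2. In Rib_CA it had the highest mean level per kilobase in the family, 98.0 CPM per kb against 59.7 in DMSO. KIFC2 lay at 41.2 and 41.5 CPM in DMSO and 48.8 and 63.4 CPM in Rib_CA (log2 fold change 0.44). It shares 17.8% of its exonic bases with FOXH1 on the opposite strand, and without strand in the counting those reads cannot be told apart. KIF17, a dendritic and ciliary motor, lay at 1.56 and 2.82 CPM in DMSO and 1.38 and 0.883 CPM in Rib_CA, apart between groups at a low level and not called (log2 fold change -0.95 ± 0.56 SE; edgeR adjusted p = 0.312).

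Among kinesins with other roles, the 2 members of the kinesin-4 pair KIF21 moved in opposite directions. KIF21A, which restrains microtubule growth at the cell cortex, lay at 32.2 and 23.7 CPM in DMSO and at 8.60 and 6.97 CPM in Rib_CA and fell 3.58-fold (edgeR adjusted p = 0.0298). KIF21B, a related motor best known from neurons and lymphocytes, lay at 4.09 and 4.31 CPM in DMSO and at 14.4 and 13.9 CPM in Rib_CA and rose 3.37-fold (log2 fold change 1.75 ± 0.33 SE; edgeR adjusted p = 0.0333). It was the single kinesin that rose, with the replicates of each group close together. KIF2A, a depolymerase of spindle poles and neurites, fell 2.38-fold from 66.4 and 62.3 CPM to 28.4 and 25.6 CPM (edgeR adjusted p = 0.0417), and 8.97% of its exonic bases overlap IPO11 on the same strand. KIF27, a relative of the Hedgehog regulator KIF7, fell 2.86-fold from 20.0 and 14.1 CPM to 6.25 and 5.69 CPM (edgeR adjusted p = 0.0480). For KIF27, 29.6% of the 50-base stretches of its longest transcript also occur in other genes' transcripts, so its counts are uncertain. KIF21A lost its call without DMSO 1 (3.05-fold lower), and KIF21B (log2 fold changes 1.71 and 1.79), KIF2A and KIF27 lost theirs without DMSO 1 and without DMSO 2, the last at 2.37-fold lower without DMSO 1.

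KIF7 lay at 24.1 and 22.01 CPM in DMSO and 29.6 and 32.5 CPM in Rib_CA (log2 fold change 0.43, not called), and 11.8% of its exonic bases are shared with TICRR on the opposite strand. KIF24, which holds back cilium formation from the mother centriole, had a log2 fold change of -0.70 ± 0.28 SE, not called, and one of -0.94 without Rib_CA 1. KIF9 had one of 0.17, and KIF26B, at 0.260 to 1.70 CPM, spread more within groups than between them. The 9 kinesins that did not pass the filter were close to or below detection. KIF6, KIF12 and KIF19 had no count in any library, which allows up to 3 counts, or 0.0697 to 0.0911 CPM, for counting error and independent counts. KIF1A, KIF2B, KIF4B, KIF5A, KIF25 and KIF26A had at most 10 counts in any library. Of the 14 mitotic kinesins 2 were in this set, KIF2B and KIF4B, and of the 16 transport kinesins KIF1A and KIF5A.

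The balance of mitotic and transport kinesins differed between the groups. Summed per kilobase of transcript, mitotic kinesins made up 55.9% and 56.4% of the family in DMSO 1 and 2 and 42.7% and 44.9% in Rib_CA 1 and 2. Transport kinesins made up 38.1% and 37.5% in DMSO and 52.3% and 49.9% in Rib_CA. By this measure mitotic transcripts were the larger class in both DMSO libraries and the smaller in both Rib_CA libraries, with mitotic-to-transport ratios of 1.47 and 1.502 against 0.817 and 0.900. As TMM-scaled values the mitotic sum went from 395 and 354 to 216 and 202 CPM per kb. The transport sum overlapped between groups, at 269 and 236 in DMSO and 264 and 224 in Rib_CA. Within it the mean of KIF5B went from 59.9 to 17.6 and that of KIFC3, not called, from 59.7 to 98.0 CPM per kb. The sums were not corrected for GC content and length, after which KIF5B was 2.08-fold lower and KIFC3 1.19-fold higher. Without division by length the transport sum was the larger in every library, at 1557 against 1481 and 1375 against 1294 CPM in DMSO and 1444 against 687 and 1192 against 650 CPM in Rib_CA. These values describe the classes and were not tested.

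Both Rib_CA libraries were below both DMSO libraries for 10 of 12 mitotic, 7 of 14 transport and 4 of 8 other kinesins, against 28.4% of all genes. They were above for 0, 2 and 3, against 30.4% of all genes. Over the 34 kinesins the groups lay apart with Rib_CA lower for 21 and higher for 5, and in either direction they did so for 58.8% of all genes.

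Kinesins with the same number are close relatives, and the ratio between 2 of them in 1 library does not depend on a scaling factor common to all genes of a library. Over the 10 such pairs with both members tested, the ratio of CPM per kilobase lay apart between the groups in all 10, and each exact two-sided permutation p was 0.333, the smallest that 2 libraries against 2 can give. No such count was made for other gene pairs, and among single genes, another measure, 58.8% lay apart in either direction. The count of 10 is therefore not read as a trait of the family. The KIF3 pairs share their genes and are not independent of each other. The largest shift was in KIF21A over KIF21B, with log2 ratios of 3.56 and 3.04 in DMSO and -0.16 and -0.41 in Rib_CA. KIF21A was thus the more abundant of the pair in DMSO and KIF21B in Rib_CA. The log2 ratio of KIF18A over KIF18B went from -0.74 and -1.42 to -2.85 and -2.83, and that of KIF2A over KIF2C from -1.30 and -1.11 to -2.11 and -2.49. In these 2 pairs the member already lower per kilobase in DMSO was further below its relative in Rib_CA. KIF20A over KIF20B went from 1.38 and 1.80 to 2.89 and 3.16, although both genes fell. The smallest shift was in KIF3A over KIF3B, from -2.78 and -2.84 to -3.30 and -2.88. After correction for GC content and length the shift in log2 ratio went from -3.58 to -3.02 for KIF21A over KIF21B, from -1.76 to -0.87 for KIF18A over KIF18B, from -1.10 to -0.46 for KIF2A over KIF2C and from 1.43 to 0.59 for KIF20A over KIF20B. For KIF3A over KIF3B it turned from -0.28 to 0.26.

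**Figure D3:**
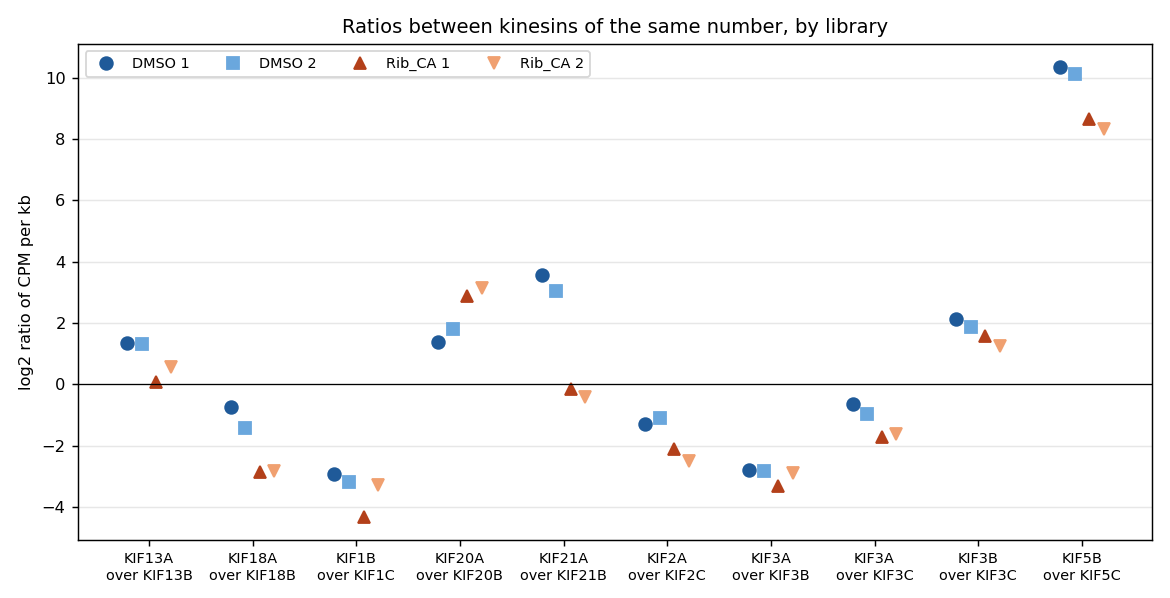
Log2 ratio of CPM per kilobase between kinesins of the same number, for each of 10 pairs and each of the 4 libraries. KIF21A over KIF21B drops from above 3 in DMSO to below 0 in Rib_CA, and KIF3A over KIF3B shows the smallest shift, from -2.78 and -2.84 to -3.30 and -2.88.

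Fold changes ran with the base composition of the transcripts. Over the 34 tested kinesins the Spearman correlation between log2 fold change and GC content of the longest transcript was 0.745, and over 13651 tested genes with a known transcript it was 0.476. Genes are not independent replicates and share libraries and depth, so these are descriptions. The 8 mitotic kinesins that fell had 34.2 to 48.4% GC and the 4 that were not called had 50.4 to 58.9%, without overlap. Transport kinesins did not divide this way: KIF5B has 39.1% GC, but KIF3A and KIFAP3, at 37.8% each, were not called. Among genes with under 45% GC, 10 of 13 kinesins were called lower against 12.1% of 5112 genes. From 45 to 50% GC it was 2 of 7 kinesins against 3.11% of 2286 genes, and above that 0 of 14 kinesins against 0.128% of 6253 genes.

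With an offset per library for the GC content and length of transcripts, a step that also removes real changes that run along these properties, edgeR called no kinesin and no gene in the table. At an unadjusted p under 0.05 it then had 16 kinesins lower and 1 higher, where 24.9% of all genes passed and 11.9% were lower. With GC content alone corrected the kinesin counts were also 16 and 1, and 26.8% of all genes passed. DESeq2 and limma-voom without the correction called 12 and 11 kinesins lower, and 1 higher each. Over all 13667 genes DESeq2 called 1514 lower and 1043 higher, and limma-voom 638 lower and 214 higher. After correction 10 of 12 mitotic kinesins, 2 of 14 transport kinesins (KIF5B and KIF17) and 4 of 8 others were lower at that unadjusted p, and the medians were -1.29, 0.03 and -0.33 against 0.03 for all genes. The 13 called kinesins kept their direction, and 7 moved by more than 1.5 times. KIF20B went to 5.71-fold lower, KIF14 to 2.60-fold, KIF18A to 3.54-fold, KIF11 to 1.98-fold, KIF5B to 2.08-fold, KIF21A to 2.29-fold and KIF27 to 1.85-fold. KIF20A changed little (3.79-fold lower), and KIF21B had a log2 fold change of 1.82. KIFC1, KIF22, KIF2C and KIF18B had log2 fold changes of -0.67, -0.35, -0.35 and -0.95 after correction, so that all 12 mitotic kinesins then lay below 0. The part of base composition in the decreases was not tested beyond these values.

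**Figure D4:**
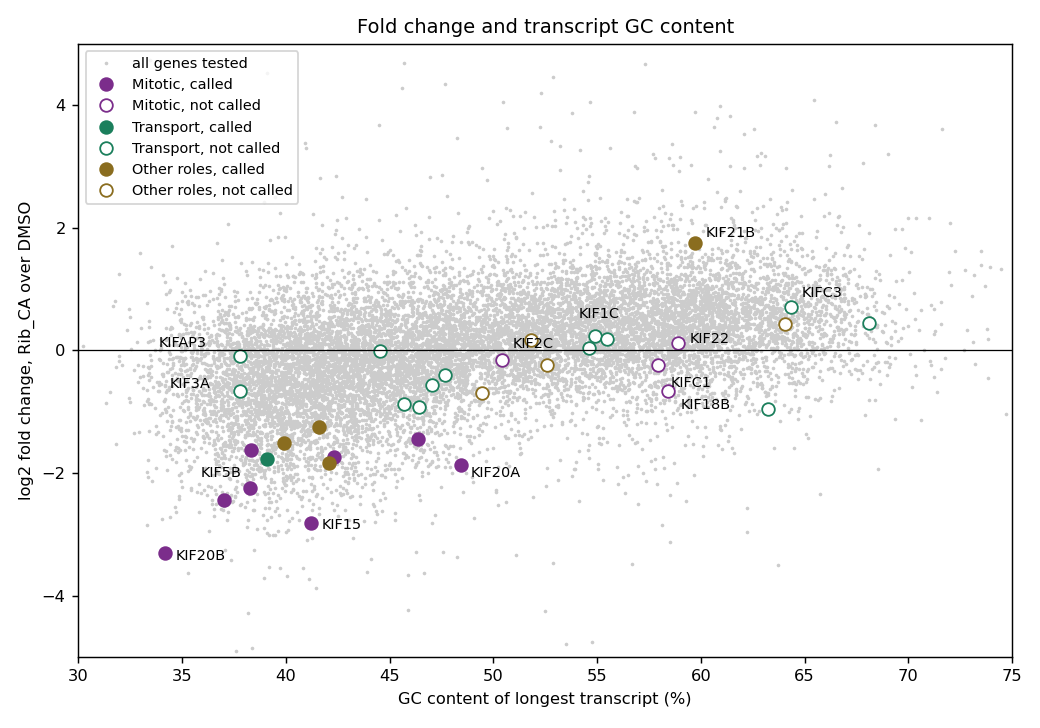
Log2 fold change of Rib_CA over DMSO against the GC content of the longest transcript, with all tested genes in grey (those outside the axes are not drawn) and kinesins coloured by class, filled where called. Mitotic kinesins that fell lie at 34.2 to 48.4% GC and those not called at 50.4 to 58.9%, while KIF3A (-0.67) and KIFAP3 (-0.10) were not called at 37.8% GC.

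Because most mitotic kinesins fell together, their promoters were compared with those of transport kinesins. Windows from 250 bases before to 50 bases after the transcription start were available from RefSeq (GRCh38.p14) for 35 of the 43 genes. They were searched on both strands for TTTGAA, the core of the cell cycle genes homology region (CHR) that the MuvB complex binds in many G2/M genes, and for CCAAT, the box bound by NF-Y. TTTGAA was found for 7 of the 8 mitotic kinesins that fell, for 2 of the 4 not called, for 1 of the 11 tested transport kinesins with a window and for 0 of 5 others, against 18.2% of 27305 genes. CCAAT was found for 10 of the 12 tested mitotic kinesins, 4 of 11 transport kinesins and 1 of 5 others, against 39.7% of genes. The windows were searched in the same way for 2 forms of the E2F site, TTTCCCGC and TTTGGCGC, which are rare among all genes. Either was found for 1 of the 12 tested mitotic kinesins, KIF15, for 0 of 11 transport kinesins and for 0 of 5 others, against 2.75% of genes. A gene with several starts was counted once if any window held the letters, and a match is a description, not a binding site. The windows run from 150 bases before to 40 bases after the start, 5′ to 3′ on the gene's strand, with TTTGAA and CCAAT, or their reverse complements TTCAAA and ATTGG, in capitals. KIF15, KIF18A, KIF23 and KIF4A are shown as mitotic kinesins that fell and hold TTTGAA before the start, KIF20A as one that fell without it, KIFC1 and KIF18B as ones that hold it and were not called, and KIF5B as the transport kinesin that fell.
KIF15 (chr3:44761644-44761833, plus strand): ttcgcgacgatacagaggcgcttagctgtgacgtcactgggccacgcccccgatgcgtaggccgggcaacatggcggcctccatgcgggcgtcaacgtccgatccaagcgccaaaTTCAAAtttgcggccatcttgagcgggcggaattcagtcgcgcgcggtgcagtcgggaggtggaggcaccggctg
KIF18A (chr11:28108117-28108306, minus strand): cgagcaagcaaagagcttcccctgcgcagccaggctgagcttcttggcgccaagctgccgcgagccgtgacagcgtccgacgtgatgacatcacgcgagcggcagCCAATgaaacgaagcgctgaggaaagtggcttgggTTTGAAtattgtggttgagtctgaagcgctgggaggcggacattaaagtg
KIF23 (chr15:69414199-69414388, plus strand): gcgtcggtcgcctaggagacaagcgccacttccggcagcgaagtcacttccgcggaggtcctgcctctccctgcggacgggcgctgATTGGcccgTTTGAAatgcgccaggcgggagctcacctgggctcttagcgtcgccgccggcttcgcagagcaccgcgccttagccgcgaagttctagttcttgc
KIF4A (chrX:70289954-70290143, plus strand): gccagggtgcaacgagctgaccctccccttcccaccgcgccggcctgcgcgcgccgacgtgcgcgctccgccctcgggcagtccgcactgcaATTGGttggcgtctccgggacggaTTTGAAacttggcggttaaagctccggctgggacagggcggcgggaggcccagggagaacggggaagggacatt
KIF20A (chr5:138178962-138179151, plus strand): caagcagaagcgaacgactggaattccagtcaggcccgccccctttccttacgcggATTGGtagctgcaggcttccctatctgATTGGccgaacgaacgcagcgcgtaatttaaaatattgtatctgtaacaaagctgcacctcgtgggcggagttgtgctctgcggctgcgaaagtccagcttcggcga
KIFC1 (chr6:33391673-33391862, plus strand): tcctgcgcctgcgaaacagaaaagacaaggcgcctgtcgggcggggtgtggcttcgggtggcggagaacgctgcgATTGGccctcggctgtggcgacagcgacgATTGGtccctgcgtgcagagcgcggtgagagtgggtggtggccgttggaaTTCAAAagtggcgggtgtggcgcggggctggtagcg
KIF18B (chr17:44947734-44947923, minus strand): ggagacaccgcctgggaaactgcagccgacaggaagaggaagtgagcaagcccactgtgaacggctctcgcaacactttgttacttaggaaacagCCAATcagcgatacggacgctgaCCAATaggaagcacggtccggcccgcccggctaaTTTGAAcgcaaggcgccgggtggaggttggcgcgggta
KIF5B (chr10:32056386-32056575, minus strand): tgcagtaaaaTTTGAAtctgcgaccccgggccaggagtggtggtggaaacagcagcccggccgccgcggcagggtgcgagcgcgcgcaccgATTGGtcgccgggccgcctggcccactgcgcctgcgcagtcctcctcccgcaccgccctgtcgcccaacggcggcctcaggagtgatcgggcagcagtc

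In KIF15, KIF23, KIF4A and KIF18A the first TTTGAA begins 35, 55, 34 and 10 bases before the start, and in KIF5B 140 bases before it. KIFC1 and KIF18B, which hold the letters at bases 5 and 3 after the start, had log2 fold changes of -0.24 and -0.66. The position did not divide called from uncalled genes, since KIF14 and KIF20B, which fell, also hold their first TTTGAA after the start, at bases 2 and 25. A match in the window was thus present in mitotic kinesins with and without a called decrease. KIF20A, which fell 3.64-fold, has 2 CCAAT boxes and no TTTGAA in its window, and other spellings of the CHR were not searched.

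Related genes were given by lists written down by role, with earlier results of these data known. Their counts stand beside 5.11% of all genes tested called lower and 2.01% called higher. After the GC and length correction 11.9% of all genes were lower at an unadjusted edgeR p under 0.05. CENPE, the kinetochore kinesin whose symbol lies outside the naming rule, lay at 170 and 121 CPM in DMSO and 13.0 and 10.4 CPM in Rib_CA, a 12.4-fold decrease (log2 fold change -3.64 ± 0.32 SE; edgeR adjusted p = 0.0285). After the GC and length correction it was 6.43-fold lower and, like every gene, not called (edgeR adjusted p = 0.0801). STARD9, a kinesin of the pericentriolar material, had a log2 fold change of -0.45 ± 0.34 SE, not called, which turned to 0.075 after that correction. Proteins that mitotic kinesins bind or carry had 9 of 20 members lower and none higher, with a median of -1.09, and -1.19 after the GC and length correction. CENPF fell 11.7-fold, DLGAP5, which stabilises kinetochore fibres, 6.06-fold, and CKAP5, a microtubule polymerase, 5.70-fold. These 3 passed with any 1 library left out. Corrected, they were 5.98-fold, 4.15-fold and 3.96-fold lower and not called, and 17 of the 20 were lower at an unadjusted p under 0.05.

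Partners of single kinesins were set beside them. CIT, the citron kinase that KIF14 brings to the central spindle, was not called (log2 fold change -1.02; edgeR adjusted p = 0.0662). Both its Rib_CA libraries were below both DMSO libraries, and after the GC and length correction it was at -0.85. RACGAP1, which forms centralspindlin with KIF23, had 113 and 99.4 CPM in DMSO and 49.6 and 70.02 CPM in Rib_CA and was not called (log2 fold change -0.83; edgeR adjusted p = 0.120). PRC1, which recruits KIF4A to the midzone, fell 2.50-fold, and TPX2, which brings KIF15 and KIF11 to the spindle, 2.87-fold, and neither was called once DMSO 1 or DMSO 2 was left out. The passenger complex genes that KIF20A serves were not called. Their log2 fold changes were -0.19 for AURKB (0.0091 with total counts), 0.18 for BIRC5, -0.24 for CDCA8 and -1.16 for INCENP. After the GC and length correction they were -0.80, -0.14, -0.54 and -1.51. AURKB and INCENP then had an unadjusted edgeR p under 0.05, and BIRC5 and CDCA8 did not. These partners were named for their role after their values were seen, except CENPF, DLGAP5 and CKAP5. Whether a kinesin and its partner differ in response was not tested.

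Partners of transport kinesins were mostly not called. Over all genes tested 5.11% were called lower and 2.01% higher. With 1 of 21 and 1 of 20 genes lower, the light chain and intraflagellar lists lay near the first share. After the GC and length correction 1621 of 13651 genes were lower and 1777 higher at an unadjusted edgeR p under 0.05. The corrected counts of the light chain and intraflagellar lists lay near or below these shares. Of 21 tested light chains, adaptors and activators of transport kinesins 1 fell and none rose, with a median of 0.05 (1 lower and 3 higher at an unadjusted p under 0.05 after correction). The one that fell was MAP7D3, a microtubule-associated activator of kinesin-1, which went from 85.8 and 92.3 CPM to 26.0 and 17.3 CPM (4.12-fold lower; edgeR adjusted p = 0.0285) and passed with any 1 library left out. TRAK2, the adaptor of mitochondria, and the light chain KLC4 had log2 fold changes of -1.19 and 1.08 without a call. Of 23 dynein and dynactin genes, the motor that moves the opposite way, 1 rose and none fell (median 0.10), and 7 were higher and 0 lower at an unadjusted p under 0.05 after correction. ACTR1B, an actin-related dynactin subunit, rose 2.93-fold, a call lost on leaving out either DMSO library, and DYNLT1 and DCTN2 had log2 fold changes of 1.08 and 0.80 that did not pass. None of 16 tubulins was called in edgeR (median -0.09), and 1 lay lower and 1 higher at an unadjusted p under 0.05. After the GC and length correction 7 lay lower and 1 higher at that p, with a median of -0.44. TUBB3, TUBE1 and TUBB2A had the smallest p-values, with log2 fold changes of -1.22, 0.92 and 0.60. DESeq2 called TUBB3 lower (adjusted p = 0.0125) and no other tubulin, and limma-voom called none. Among 20 intraflagellar transport genes, the trains that kinesin-2 pulls, 1 fell and none rose (median -0.46), with 2 lower and 1 higher at an unadjusted p under 0.05 after correction. It was IFT74, at 2.97-fold lower (edgeR adjusted p = 0.0331), and its call was lost on leaving out either DMSO library. Its partner IFT81 and WDR35 had log2 fold changes of -1.28 and -1.09 that were not called.

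**Figure D5:**
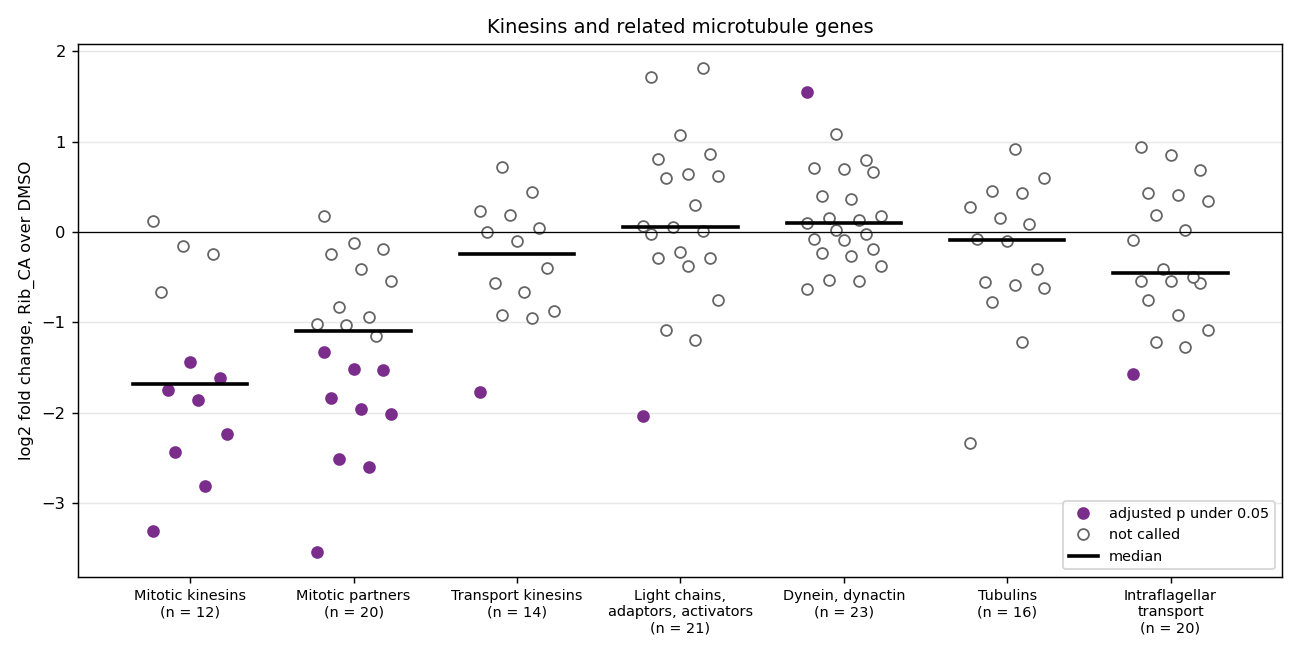
Log2 fold change of Rib_CA over DMSO for each tested gene of the mitotic and transport kinesins and of 5 lists of related genes, with filled points for an adjusted p under 0.05 and black bars for medians. The medians of mitotic kinesins (-1.68) and their partners (-1.09) lie lowest, and those of the light chains (0.05), dynein and dynactin (0.10) and tubulins (-0.09) lie near 0.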

How the data were processed

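RNA from 4 libraries was measured by sequencing. The authors deposited raw counts per Ensembl gene in 1 table, without normalization. For the aligner, the counting tool and the use of strand, the entry is: not given in the sources used here. The submitters' processing notes name GRCm38 and mm10, mouse builds that do not match the table's human Ensembl IDs, so coordinates and transcripts were taken from GENCODE release 29 by ID (20224 of 20263 rows matched, and 20148 rows were given a symbol). Between 67.7% and 70.7% of the values from 1 to 10 in a library were even numbers, so counts may not be independent molecules, and limits from counts cover counting error only.

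Groups came from the sample titles. Genes with enough counts (edgeR filterByExpr, minimum count 10 and minimum total 15) were scaled by TMM and tested with edgeR 4.0.16 quasi-likelihood fits in R 4.3.3, with Benjamini-Hochberg adjustment over all 13667 genes and a threshold of 0.05. The main fit had 2 residual degrees of freedom, and fits without 1 library or with a replicate block had fewer. Levels are TMM-scaled CPM, or CPM per kilobase of the longest transcript. Alternatives were DESeq2 1.42.0 (size factors or test), limma 3.58.1 voom, total-count scaling, other filters (none, or 5 CPM in 2 libraries), leaving out each library or the mitochondrially encoded genes, a replicate block, another class for KIF2A, KIF21A and KIF21B, and offsets for GC content and length from smooth curves with 6 basis functions (mgcv 1.9.3). Promoter windows came from RefSeq (GRCh38.p14). All members were reported, and of each related list the 3 tested genes with the smallest p, plus CENPE and STARD9. The members and lists were chosen with earlier results of these data known.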

Additional observations from a re-analysis of the deposited data

How the results depend on the processing

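Leaving out 1 library gave 3 to 14 kinesins lower and 0 to 2 higher, 3 to 8 mitotic and 0 to 3 transport kinesins lower, and mitotic medians of -1.77 to -1.62. Calls over all genes in these fits were also fewer without either DMSO library and more without either Rib_CA library. The kinesin call counts of these fits are therefore not read as a trait of the family. Correction for GC content, for GC content and length, or for both with the replicate block left 0 kinesins lower and 0 higher, and so 0 mitotic and 0 transport calls. The mitotic median was then -1.28, -1.29 and -1.32, and -1.49 with total counts. The transport median was -0.048 with total counts, 0.032 with GC content and length and 0.012 with the block added. The dynein list had a median of 0.30 with total counts, the tubulins -0.44 with GC content and length and -0.46 with the block added, and the intraflagellar list -0.18 with GC content and -0.57 to -0.18 over the fits without 1 library. DESeq2, its size factors, both other filters and the removal of mitochondrially encoded genes each left 12 kinesins lower and 1 higher. Over all genes tested in each, these settings called 749 to 1514 lower and 298 to 1043 higher. The cause of these shifts was not tested.

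With the replicate number as a block, 10 kinesins were lower and 1 higher, beside 687 lower and 260 higher over all genes. KIF27 and KIF2A were lost. Same-numbered libraries did not deviate together (correlation -0.19 over 13667 genes), so the number was not taken as a pairing. With crossed pairing, chosen after seeing the data, 13 kinesins were lower and 1 higher, and 2 transport kinesins were lower. Over all genes 1267 were then lower and 724 higher.

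No called gene named here changed sign, and 16 that were not called did. With total counts the log2 fold change was 0.037 for KIF2C, 0.076 for KIF26B, 0.20 for KIF5C and 0.10 for KIFAP3. With GC correction it was -0.28 for KIF22, -0.080 for KIF7, -0.031 for KIF9, -0.23 for KIF13B, -0.093 for KIF1C, -0.10 for KIF3C, 0.28 for KIF5C, 0.54 for KIFAP3 and -0.12 for KIFC2. With GC content and length it was -0.35 for KIF22, 0.23 for KIF26B, -0.032 for KIF9, 0.047 for KIF3A, 0.46 for KIF5C, 0.49 for KIFAP3, 0.075 for STARD9 and -0.059 for TUBB2A. With the block added it was -0.35 for KIF22, 0.27 for KIF26B, -0.029 for KIF9, 0.048 for KIF3A, 0.45 for KIF5C, 0.49 for KIFAP3, -0.013 for KIFC2 and -0.061 for TUBB2A. Without mitochondrially encoded genes KIF5C was at 0.017. AURKB was at 0.0091 with total counts, and BIRC5 at -0.069, -0.14 and -0.044 with GC content, with length added and with the block added. Over the fits without 1 library KIF22 ranged from -0.029 to 0.22, KIF26B from -1.66 to 1.66, KIF13B from -0.16 to 0.28, KIF1C from -0.25 to 0.56, KIF5C from -0.15 to 0.086, KIFAP3 from -0.34 to 0.10, AURKB from -0.46 to 0.011 and BIRC5 from -0.34 to 0.90. Counts limit KIF5C and KIF26B, at 9 to 58 counts per library, most.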
